A study of Mus musculus with 6 samples.

Results

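The neuregulins and the ErbB receptors were measured by RNA-seq in nerve tissue of mice with and without Dok6, taken on postnatal day 3. The 4 ligand genes Nrg1 to Nrg4 and the 4 receptor genes Egfr and Erbb2 to Erbb4 were found by gene name among the 54532 genes of the count table, and all 8 passed the filter on low counts that left 17099 genes for testing. The control group held 3 mice labelled WT and the other group 3 mice labelled Dok6 KO, with 1 RNA-seq library per mouse from tissue labelled as sciatic nerve. The mutants were Dok6-/- animals on a C57BL/6 background, made from a floxed Dok6 line (Dok6 fl/fl) with the EIIA-cre driver. EIIA-cre acts in the early embryo, so that the loss of Dok6, which encodes an adaptor of receptor tyrosine kinases, covers all cells and not only those of the nerve. The sources describe the controls as littermates but do not tie single mice to litters, and the methods state that the sexes were not distinguished outside the behavioural tests. Whether tissue of several animals was pooled is not given in the sources used here.

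Neuregulins are ligands with an EGF-like domain that bind ErbB3 and ErbB4, and the bound receptor pairs with another member of the family, most often ErbB2. ErbB2 has no known ligand of its own, and the kinase of ErbB3 is so weak that the ErbB2-ErbB3 pair works as a unit, with the kinase on one side and docking sites for PI3K on the other. In peripheral nerve, NRG1 displayed on the axon acts on this pair in Schwann cells and governs their survival, migration, sorting of axons and myelin thickness, whereas ErbB4 is mainly a receptor of neurons and of the heart.

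The libraries were close in size, with 17699904 to 17989661 counts in the controls and 18175481 to 18678170 in the mutants. A level of 3 counts corresponded to between 0.156 and 0.172 CPM (counts per M counts of a library, with TMM scaling), a floor that covers counting error only. Dok6 itself stood at 17.8, 11.9 and 17.5 CPM in control mice 1, 2 and 3 and at 7.26, 5.78 and 7.15 CPM in mutant mice 1, 2 and 3. Its log2 fold change was -1.23 (SE 0.20), with an adjusted p of 0.0118 in the quasi-likelihood test of edgeR (Benjamini-Hochberg). The counts cover the whole gene, including exons that the deletion leaves in place.

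The tissue label was checked against marker genes. Pmp22, a gene of compact myelin in peripheral nerve, was at 24.7, 17.5 and 14.6 CPM in the controls and at 89.3, 783 and 76.2 CPM in the mutants. Genes of central nervous tissue were present in all 6 libraries, with Gfap, the filament gene of astrocytes, at 227 to 489 CPM in the controls and 189 to 555 CPM in the mutants, and Slc6a5, the transporter of glycinergic neurons, at 224 to 264 and 177 to 232 CPM. The summed level of 10 markers of Schwann cells was 102 to 184 CPM in the controls and 419, 3770 and 251 CPM in mutant mice 1, 2 and 3, so that mutant mouse 2 stood apart from the rest. Much of the control sums came from Sox10 (42.2 to 108 CPM) and S100b (15.9 to 41.3 CPM), which other glia also express. Markers of dorsal root ganglion (DRG) neurons summed to 220 to 278 CPM in the controls and 420 to 1050 CPM in the mutants, those of skeletal muscle to 12.9 to 21.9 and 111 to 602 CPM, and those of fibroblasts to 299 to 1160 and 2010 to 3180 CPM. In RNA from whole tissue, fewer cells of a type and less RNA per cell cannot be told apart, and neither can the genotype and the mixture of tissues where both differ between the same 6 libraries.

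Among the receptors, Erbb3 and Erbb2 were higher in the mutants, and among the ligands Nrg3 was lower, while the other 5 genes had no call. Erbb3 was 9.88-fold higher (95% interval 3.86 to 25.3), Erbb2 was 2.23-fold higher (1.44 to 3.44) and Nrg3 was at 0.725 of the control level (0.605 to 0.869). Thus 2 of 4 receptors were higher and 0 lower, and 1 of 4 ligands was lower and 0 higher. At an unadjusted p under 0.05 edgeR gave 3 receptors higher and 0 lower, and 1 ligand lower and 0 higher, where 18% of all genes tested were higher and 15.5% lower. DESeq2 called the same numbers of receptors and ligands as edgeR, and limma voom called 1 receptor (Erbb2) higher and 1 ligand lower. Over all genes tested, DESeq2 called 10.6% higher and 8.88% lower, and limma voom 7.86% and 6.02%. Among the 17099 genes tested with edgeR, 8.62% were called higher and 6.01% lower at an adjusted p under 0.05, the rule used for every call here. In Erbb3 and Erbb2 every mutant mouse lay above every control mouse, which held for 19.6% of all genes tested, and in Nrg3 every mutant mouse lay below every control mouse, which held for 18.7%. Past a log2 fold change of 2, the threshold of the study's methods, only Erbb3 remained, against 1.08% of all genes tested. Without control mouse 2, the adjusted p was over 0.05 for all 3 of these genes, and the calls over all genes went down to 56 higher and 12 lower, from 1474 and 1028.

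**Figure D1:**
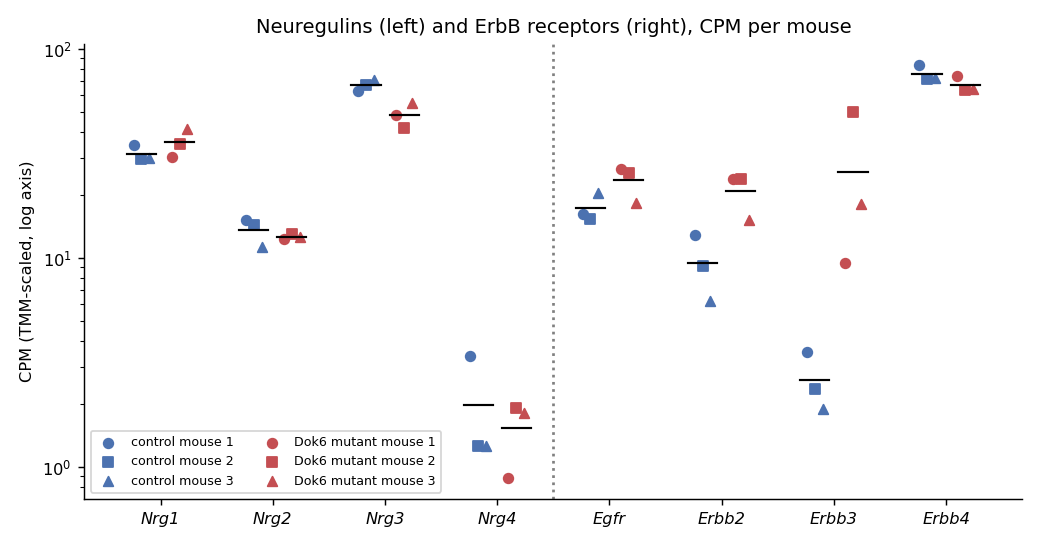
CPM on a log axis for the 4 ligand genes (left of the dotted line) and the 4 receptor genes (right), with 1 point per mouse, control mice in blue, Dok6 mutant mice in red, and a bar at the mean of 3 mice. Erbb3 runs from 1.89 to 3.56 CPM in the controls and from 9.39 to 49.9 CPM in the mutants, Erbb2 also shows separate groups, and the Nrg3 points of the mutants lie below those of the controls.

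**Figure D2:**
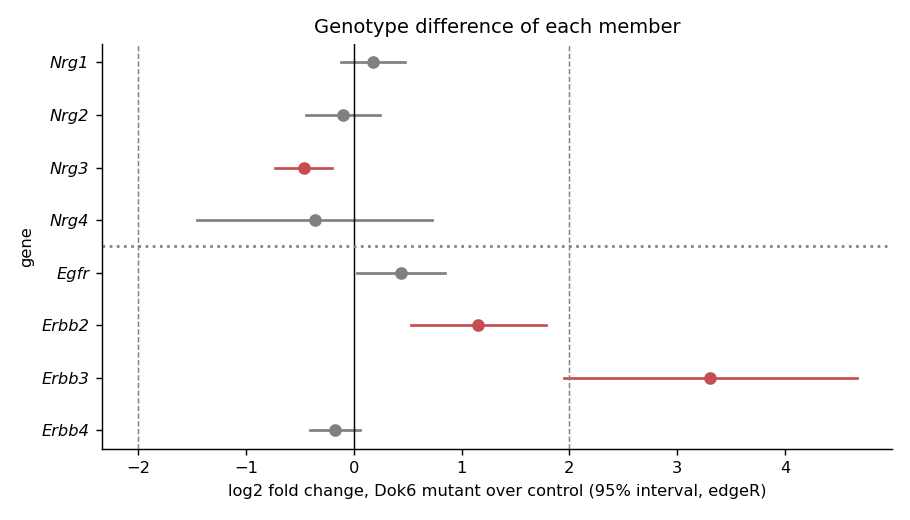
Log2 fold change of each gene, mutant over control, with its 95% interval from the edgeR fit (ligands above the dotted line, receptors below it). Red marks an adjusted p under 0.05, grey the rest, and the dashed lines stand at 2 and -2, a size that only Erbb3 passed, at 3.31.

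Erbb3 is the ligand-binding side of the Schwann cell receptor pair. The gene lies on the minus strand at chr10:128567523-128589652 of GRCm38, where the annotation gives it 1 transcript of 28 exons and 6016 bases and no gene that overlaps its exons. The study measured Erbb3 by quantitative PCR, and its primer pair is shown because it places that assay on the gene. The forward primer matches exon 15 at chr10:128576976-128576995, the reverse primer spans the junction of exons 15 and 16, and each matches this transcript and no other of the annotation. Both are written 5′ to 3′ in lower case throughout, and the product is 149 bases long.
ErbB3 forward primer: atgcgcccattttcgtgatg
ErbB3 reverse primer: ctggtcccttacacccttgg

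Control mice 1, 2 and 3 had 62, 41 and 33 Erbb3 counts, or 3.56, 2.35 and 1.89 CPM. Mutant mice 1, 2 and 3 had 181, 915 and 339 counts, or 9.39, 49.9 and 18 CPM. The lowest mutant was thus well above the highest control, but the mutants differed widely among themselves. The log2 fold change was 3.31 (SE 0.60, 95% interval 1.95 to 4.66), with an adjusted p of 0.0151 in the quasi-likelihood test of edgeR (Benjamini-Hochberg). The highest mutant value was 5.32 times the lowest, whereas this ratio had a median of 1.25 over all genes tested and of 1.3 over genes called higher. Mutant mouse 2, which held the highest Pmp22 level, also held the highest Erbb3 level. The other mutants were in the opposite order. Mutant mouse 1 was above mutant mouse 3 in Pmp22 and in the Schwann cell sum but below it in Erbb3. Control mouse 3 had the highest Schwann cell sum of the controls and the lowest Erbb3. It was also the highest control in Sox10 (108 CPM) and S100b (41.3 CPM), which other glia share. In Pmp22 the controls took the same order as in Erbb3, with 24.7, 17.5 and 14.6 CPM in control mice 1, 2 and 3. Without mutant mouse 2 the log2 fold change of Erbb3 was 2.39, with an adjusted p of 0.0218. Without control mouse 2 it was 3.24, with an adjusted p of 0.0854, the only one of the 6 fits with a mouse left out in which Erbb3 lost its call. With limma voom on all 6 mice the log2 fold change was 2.99 (SE 0.86), with an adjusted p of 0.0524, so that the call was lost there too.

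Erbb2 encodes the partner that carries the kinase activity of the pair. It lies on the plus strand at chr11:98412470-98437716, and Mien1, a gene of the opposite strand, overlaps its exons. The promoter of Erbb2 is shown with that of Nrg3 as the called members whose promoter is held in the RefSeq table for GRCm38.p6, which has an entry for 5 of the 8 genes. Each window holds 300 bases, from 250 before the start of the gene in RefSeq to 50 after it, and is written 5′ to 3′ on the strand of the gene. Capitals mark any match on either strand to 4 short motifs, and the windows hold no overlapping matches. The letters CCAAT stood for the binding site of NF-Y, GGGCGG for that of SP1 and its relatives, TATAAA for the element bound by TBP, and ACAAAG for the core of SOX sites. The Erbb2 window, chr11:98412234-98412533 on the plus strand, has a GC content of 66% and 1 match, a CCAAT that begins 41 bases before the RefSeq start, which lies slightly downstream of the GENCODE start given above for Erbb2. Such a match was held by 37.4% of all 32851 promoters of the table. The Nrg3 window, chr14:39473039-39473338 on the minus strand, has a GC content of 74.3% and no match, while GGGCGG was held by 35.7% of all promoters, ACAAAG by 18.7% and TATAAA by 13.6%.
Erbb2 promoter: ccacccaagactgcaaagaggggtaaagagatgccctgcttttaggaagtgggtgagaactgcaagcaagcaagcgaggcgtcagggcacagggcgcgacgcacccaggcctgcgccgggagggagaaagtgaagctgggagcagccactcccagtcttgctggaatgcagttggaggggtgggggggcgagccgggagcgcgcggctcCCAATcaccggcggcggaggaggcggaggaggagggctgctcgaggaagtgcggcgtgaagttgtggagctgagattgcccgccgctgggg
Nrg3 promoter: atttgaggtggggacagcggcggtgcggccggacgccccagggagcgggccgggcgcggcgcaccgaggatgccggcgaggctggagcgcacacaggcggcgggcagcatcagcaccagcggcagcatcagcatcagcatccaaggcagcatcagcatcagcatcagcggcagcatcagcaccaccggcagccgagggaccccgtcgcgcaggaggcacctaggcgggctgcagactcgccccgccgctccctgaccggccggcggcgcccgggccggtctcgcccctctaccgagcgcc

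In the controls Erbb2 was at 12.9, 9.12 and 6.18 CPM, and in the mutants at 23.7, 23.8 and 15.2 CPM. The genotypes did not overlap, although mutant mouse 3 was close to control mouse 1. On the log2 scale Erbb2 changed by 1.16 (SE 0.28, 95% interval 0.53 to 1.78), with an adjusted p of 0.0297 in the same edgeR test. Mien1 had a log2 fold change of -0.12 and an adjusted p of 0.696 in that test. The Erbb2 call rested on single mice: the adjusted p was 0.119 without control mouse 2, 0.0589 without control mouse 3, 0.0836 without mutant mouse 1 and 0.084 without mutant mouse 2, and the log2 fold change stayed between 0.93 and 1.45.

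Egfr encodes the receptor of EGF and TGF-alpha, which does not bind neuregulins itself but can pair with the other ErbB receptors. The gene lies at chr11:16752203-16918158 on the plus strand. It was at 16.2, 15.3 and 20.4 CPM in the controls and at 26.7, 25.5 and 18.2 CPM in the mutants. Mutant mouse 3 fell within the control range, so that the genotypes overlapped. At a log2 fold change of 0.44 (SE 0.18, 95% interval 0.03 to 0.84), Egfr missed the threshold, with an adjusted p of 0.123 in the quasi-likelihood test of edgeR (Benjamini-Hochberg). Without mutant mouse 3 it was 0.59, with an adjusted p of 0.0392.

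Erbb4 encodes the neuregulin receptor that carries a working kinase of its own. It lies at chr1:68032186-69108059 on the minus strand. Its level was 83.9, 71.3 and 72.3 CPM in the controls and 74.2, 63.5 and 64.1 CPM in the mutants. The groups overlapped at mutant mouse 1. Its log2 fold change was -0.17 (SE 0.10, 95% interval -0.40 to 0.06), with an adjusted p of 0.27 in the edgeR test, so that the direction was not resolved and a fall of 1 log2 unit or more lies outside the interval.

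Nrg3 encodes a ligand that binds ErbB4 and is made mainly by neurons of the central nervous system. The gene lies at chr14:38368952-39473088 on the minus strand. Its level was 62.9, 66.7 and 70.8 CPM in the controls and 48.3, 41.7 and 55.3 CPM in the mutants. No mutant mouse reached the lowest control. This is a log2 fold change of -0.46 (SE 0.12, 95% interval -0.73 to -0.20), with an adjusted p of 0.0331 in the quasi-likelihood test of edgeR (Benjamini-Hochberg). With a mouse left out, the adjusted p was over 0.05 in 5 of 6 fits: 0.0541 without control mouse 1, 0.118 without control mouse 2, 0.0769 without control mouse 3, 0.0926 without mutant mouse 1 and 0.0894 without mutant mouse 2. The log2 fold change was -0.57 to -0.37 in all 6 fits.

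Nrg1 encodes the axonal ligand of the Schwann cell receptors and occupies chr8:31814551-32884029 on the minus strand, where the annotation lists 18 transcripts, 12 of them coding. The counts are summed per gene and do not separate its transmembrane and secreted forms. The level was 34.5, 29.6 and 30.0 CPM in the controls and 30.4, 35.1 and 41.3 CPM in the mutants. Mutant mouse 1 lay among the controls, and control mouse 1 lay among the mutants. The log2 fold change was 0.18 (SE 0.13, 95% interval -0.12 to 0.48), with an adjusted p of 0.359 in the edgeR test. A difference as large as that of Erbb2 or Erbb3 therefore lies outside the interval for Nrg1.

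Nrg2 encodes a ligand of ErbB3 and ErbB4 and lies on chromosome 18. It was at 15.1, 14.3 and 11.2 CPM in the controls and at 12.3, 13 and 12.6 CPM in the mutants, which all fell inside the control range. For Nrg2 the log2 fold change was -0.10 (SE 0.15, 95% interval -0.44 to 0.25), with an adjusted p of 0.692 in the edgeR test. Nrg4, a ligand of ErbB4, had the fewest counts of the 8 genes, with 59, 22 and 22 in the controls and 17, 35 and 34 in the mutants. These correspond to 3.39, 1.26 and 1.26 CPM and to 0.882, 1.91 and 1.80 CPM. Control mouse 1 was the highest and mutant mouse 1 the lowest, and the groups overlapped. The log2 fold change was -0.36 (SE 0.48, 95% interval -1.45 to 0.73), with an adjusted p of 0.628 in that test, and without control mouse 1 it was 0.28, so that no direction can be given at this depth. The exons of Nrg1 and Nrg4 are overlapped by genes of the opposite strand (Gm26578 for Nrg1, Fbxo22 and the pseudogene Gm15625 for Nrg4), and the use of strand in counting is not given in the sources used here.

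To compare one gene with another, counts were divided by the gene length in the table and scaled to the same sum in each library (TPM, transcripts per M). In the controls the order was Nrg3 at 34.4 ± 1.13 TPM, Erbb4 at 21.6 ± 2.52, Nrg2 at 15.5 ± 2.74, Nrg1 at 10.7 ± 1.19, Erbb2 at 6.37 ± 2.43, Egfr at 5.36 ± 0.736, Erbb3 at 1.53 ± 0.546 and Nrg4 at 1.15 ± 0.746 TPM (mean ± SD, n = 3). Neighbours in this order had separate ranges except Erbb2 and Egfr, and Erbb3 and Nrg4. The receptor of the Schwann cell pair that binds neuregulin was thus the lowest of the 4 receptors in every control library. In the mutants Erbb3 averaged 15.8 ± 12.7 TPM, close to Nrg2 at 15.3 ± 0.242 and Erbb2 at 14.9 ± 3.32 TPM. Above and below them stood Nrg3 at 26.5 ± 4.30, Erbb4 at 20.3 ± 2.04 and Nrg1 at 12.8 ± 2.11 TPM, and neighbours among these 6 genes had overlapping ranges. Egfr at 7.71 ± 1.42 and Nrg4 at 0.937 ± 0.339 TPM came last, each with a range separate from the gene above it.

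The make-up of each family was described by the share of its members in the summed TPM. Erbb4 made up 60.2, 62.3 and 63.9% of the summed receptor TPM in the controls and 41.5, 25.4 and 40.8% in the mutants. The share of Erbb3 was 5.24, 4.22 and 3.43% in the controls and 10.8, 40.9 and 23.5% in the mutants. Erbb2 held 13 to 21.9% and 22.6 to 31.4%, and for each of these 3 receptors the genotypes did not overlap, whereas the shares of Egfr, 12.7 to 19.7% and 11.1 to 16.3%, overlapped. Since shares sum to a whole, a higher share of 1 gene lowers the others. Within the ligand pool Nrg3 had 51.2, 55.9 and 60.7% in the controls and 50.0, 43.5 and 49.2% in the mutants, and Nrg1 16.4 to 18.5% and 20.7 to 24.2%. Both sets of ligand shares were separate between the genotypes, but by narrower margins than those of Erbb4.

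**Figure D3:**
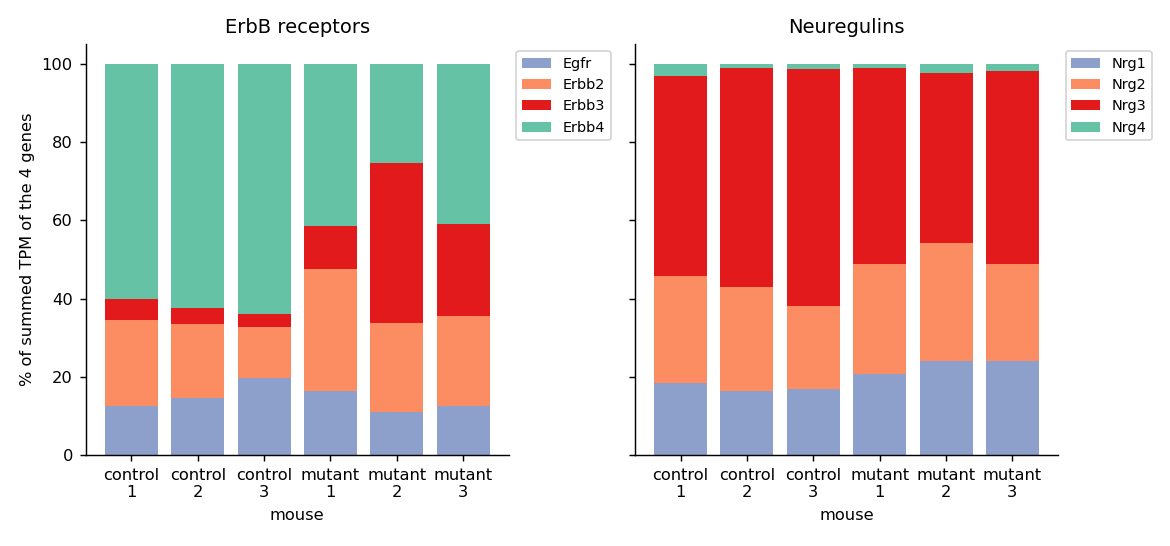
Share of each gene in the summed TPM of the 4 receptor genes (left) and of the 4 neuregulin genes (right), in percent, with 1 bar per mouse. Erbb4 takes over 60% of the receptor bar in each control mouse and 25.4 to 41.5% in the mutants, while the Erbb3 segment grows from at most 5.24% to as much as 40.9%.

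Summed over the families, receptors came to 40.7, 32.5 and 31.4 TPM in the controls and 54.3, 73.4 and 48.2 TPM in the mutants. The ligands summed to 65.1, 61.4 and 58.6 TPM in the controls and 53.3, 50.9 and 62.6 TPM in the mutants. The receptors were therefore at 0.529 to 0.625 of the ligands in the controls and at 0.770 to 1.44 in the mutants, without overlap. For single pairs, the log2 ratio of Erbb3 to Nrg1 per length was -2.46, -2.81 and -3.13 in the controls and -0.90, 1.29 and -0.41 in the mutants, a difference of 2.79. For Erbb3 against Erbb2 the log2 ratio was -2.03, -2.11 and -1.86 in the controls and -1.53, 0.86 and 0.03 in the mutants, a difference of 1.79. Both differences had p = 0.1 in a two-sided exact permutation test, the smallest p that 3 against 3 mice allow, so that no adjusted value can pass 0.05. The log2 ratio of Erbb2 to Nrg1 was -0.43, -0.70 and -1.27 in the controls and 0.63, 0.43 and -0.45 in the mutants, where mutant mouse 3 overlapped the controls and the two-sided exact permutation test gave p = 0.2 for a difference of 1.00.

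Levels of the members were then set beside those of marker genes in the same libraries. Of 10 Schwann cell markers, 6 rose in the edgeR test (4 with DESeq2 and 1 with limma voom), among them Pmp22 by 4.06 and Dhh, a signal that Schwann cells secrete, by 3.89 on the log2 scale. Sox10, a transcription factor of both Schwann cells and oligodendrocytes, was at 42.2 to 108 CPM in the controls and 49.4 to 144 CPM in the mutants and had no call. The ratio of Erbb3 CPM to Pmp22 CPM was 0.129 to 0.144 in the controls and 0.0637 to 0.236 in the mutants. Against Dhh, chosen after its values were seen, the ratio was 2.75 to 5.86 and 2.10 to 2.69, and against Sox10 it was 0.0175 to 0.0561 and 0.103 to 0.364. The genotypes thus overlapped in the ratio to Pmp22, the mutants were lower in the ratio to Dhh, and they were higher in the ratio to Sox10. Such ratios are not per length and were compared only between mice. How much of the Erbb3 and Erbb2 differences goes with the amount of Schwann cell RNA was not tested.

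The ligands were read against markers of neurons. Of 10 DRG neuron markers tested, 9 rose, such as Avil by 3.76 and Scn10a, a sodium channel gene of nociceptors, by 5.58 on the log2 scale, whereas the axonal ligand Nrg1 had no call. The summed DRG level and Nrg1 nevertheless ranked the 6 mice alike but for 2 swaps of neighbours. Control mice 2 and 3 were lowest in both, mutant mice 2 and 3 were highest in both with their order exchanged, and mutant mouse 1 was above control mouse 1 in the DRG sum (420 and 278 CPM) but below it in Nrg1 (30.4 and 34.5 CPM). The part of DRG neuron RNA in the Nrg1 level was not tested. Of 10 markers of central neurons, Pax2 and Slc32a1 fell, by 0.62 and 0.32 on the log2 scale, and the other 8 had no call in edgeR. DESeq2 called 4 of the 10 lower and limma voom 1, and 6 were lower at an unadjusted p under 0.05 in edgeR. Their summed level was 950 to 1050 CPM in the controls and 753 to 840 CPM in the mutants, and the 6 mice took the same order for it as for Nrg3, with mutant mouse 2 lowest and control mouse 3 highest in both. The part of central nervous tissue in the Nrg3 difference was not tested.

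**Figure D4:**
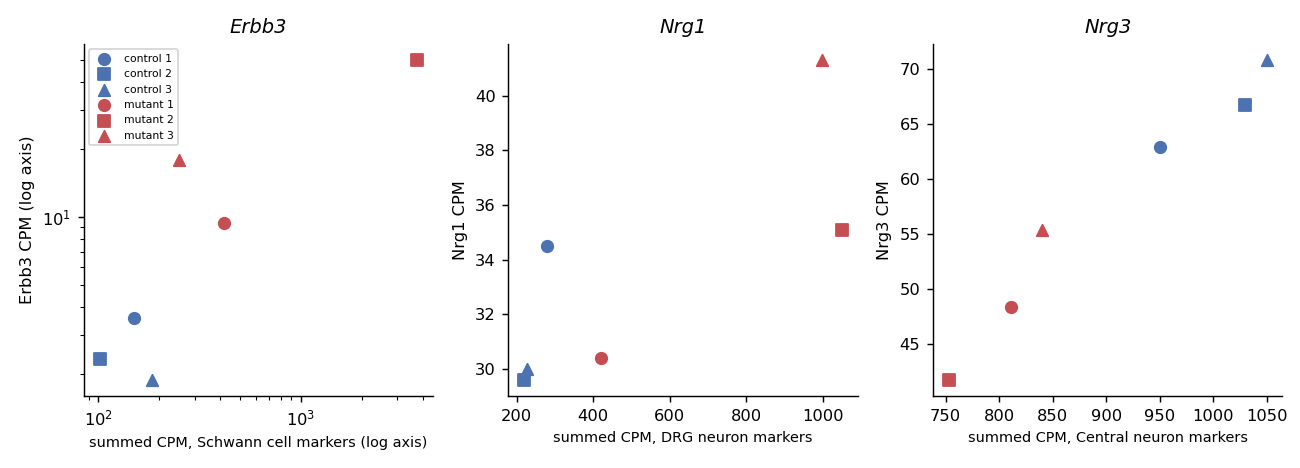
CPM of Erbb3, Nrg1 and Nrg3 against the summed CPM of markers of Schwann cells, DRG neurons and central neurons, with 1 point per mouse (control in blue, mutant in red, log axes in the first panel). The Schwann cell sum includes Sox10 and S100b, which other glia also express and which make up much of it in the controls. Erbb3 is highest in mutant mouse 2, where Schwann cell markers sum to 3770 CPM, Nrg1 ranks the mice like the DRG markers but for 2 swaps of neighbours, and Nrg3 falls together with the central neuron markers from 70.8 to 41.7 CPM.

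The remaining marker lists covered muscle, connective tissue, vessels, immune cells, other glia and skin. In edgeR skeletal muscle markers rose in 7 of 8 tested and fibroblast markers in 4 of 7, while endothelial markers rose in 3 of 6 and macrophage markers in 1 of 6 (Tmem119). DESeq2 called 7 muscle, 5 fibroblast, 4 endothelial and 3 macrophage markers higher, and limma voom called 4, 6, 3 and 2. None of 9 oligodendrocyte markers, 8 astrocyte markers or 2 keratinocyte markers tested had a call by edgeR or limma voom, while DESeq2 called 1 keratinocyte marker lower, and 1 oligodendrocyte marker (higher) and 1 keratinocyte marker (lower) were under an unadjusted p of 0.05 in edgeR. The oligodendrocyte sum was 271 to 685 CPM in the controls and 309 to 931 CPM in the mutants, and the keratinocyte sum was 18.3 to 27.4 CPM in all 6 libraries. Fibroblasts are known to express Egfr and Erbb2, and their part in the values of those genes was not tested.

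Around the receptors, 76 genes of the pathway were grouped by role, of which 71 were tested. Of these, 10 were higher, 4 lower and 57 had no call, where 8.62% of all genes tested were called higher and 6.01% lower. Their median log2 fold change was 0.01, equal to the median of 0.01 over all genes tested. None of 3 other EGF family ligands tested had a call by edgeR, DESeq2 or limma voom, and 0 were under an unadjusted p of 0.05. Tgfa stood at 72.5 to 83.4 CPM in all 6 libraries, Hbegf at 29.3 to 33.8 CPM in the controls and 27.4 to 27.5 CPM in the mutants (log2 fold change -0.20), and Egf at 1.77 to 2.24 CPM in all. Areg, Ereg, Btc and Epgn did not pass the filter.

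Among 10 sheddases and cofactors, which cut neuregulins and their receptors at the membrane, 3 rose and 0 fell in edgeR, DESeq2 and limma voom alike, with 1 lower at an unadjusted p under 0.05 in edgeR. Adam17, the main sheddase of EGF family ligands, went from 26.5, 22.1 and 27.2 CPM in the controls to 39.6, 41.6 and 35.8 CPM in the mutants. That is a log2 fold change of 0.63 (SE 0.11), with an adjusted p of 0.0153 in the edgeR test. Adam10 rose by 0.34 on the log2 scale, while Bace1, the protease that activates NRG1 on axons, was at 85.8 to 91.1 CPM in the controls and 93.2 to 104 CPM in the mutants without a call.

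Adaptors and other proximal proteins had 3 higher and 2 lower of 21 in edgeR and limma voom, and 5 higher and 3 lower in DESeq2. Shc1, which links phosphorylated receptors to GRB2 and RAS, rose from 13, 7.57 and 6.86 CPM to 23.0, 27.4 and 29.3 CPM, a log2 fold change of 1.54 (SE 0.24) with an adjusted p of 0.0108 in the quasi-likelihood test of edgeR (Benjamini-Hochberg). Shc2, its neuronal relative, rose by 0.60 on the log2 scale. Grb2 itself fell by 0.31 and Pak1, a kinase downstream of RAC, by 0.40 on that scale. Of 12 genes of PI3K and AKT, Pik3cd rose by 0.75 and Pik3cb fell by 0.38, and of 10 genes of RAS and ERK signalling, Mapk3 (ERK1) rose by 0.50 and Map2k1 (MEK1) by 0.36. In that list DESeq2 called 2 genes higher and 2 lower, and edgeR had 3 higher and 2 lower at an unadjusted p under 0.05. Among 15 genes of receptor turnover and feedback, Spry4, an inhibitor that ERK signalling induces, was at 21.8, 17.4 and 20.6 CPM in the controls and 40, 36.7 and 33.3 CPM in the mutants, and its log2 fold change was 0.88. Lrig2, of a family of membrane proteins that act on ErbB receptors, fell by 0.33 in that list. The counts of 10 higher and 4 lower over all the lists became 8 and 1 without control mouse 1, 0 and 0 without control mouse 2, 9 and 1 without control mouse 3, 6 and 0 without mutant mouse 1, 2 and 0 without mutant mouse 2, and 13 and 4 without mutant mouse 3.

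**Figure D5:**
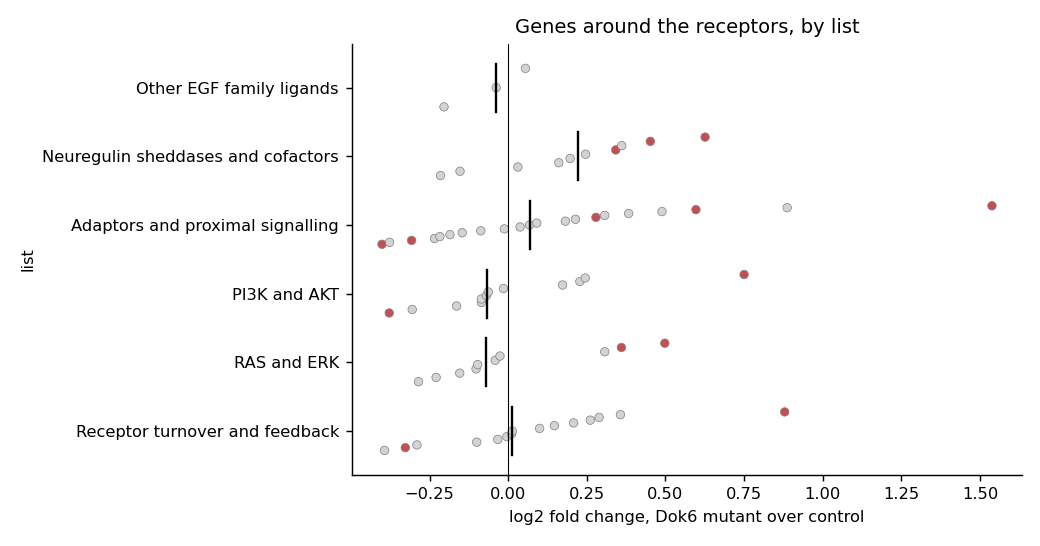
Log2 fold change, mutant over control, of each tested gene around the receptors, by list, with 1 point per gene and a black bar at the median of the list. Red marks an adjusted p under 0.05 in the edgeR test. Medians lie between -0.07 and 0.22, and Shc1, at 1.54, is the point farthest to the right.

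Finally, the genes most like 4 of the members were sought by Pearson's r of log2 CPM over the 6 libraries, among 12314 genes with a mean of at least 5 CPM. These values are a description of 6 libraries that share the split by genotype, and the genes named are the highest of many candidates. Nearest to Erbb3 were Mfap3, Snx7, Plod2, Tbx2 and Zcchc7 (r from 0.9925 to 0.9949), and nearest to Erbb2 were Cd82, Fn3krp, Ptgr2, Khk and Tmem123 (0.9919 to 0.9955). For Nrg1 they were Cacnb3, Slc6a13, Map2k6, Eif4g1 and Nav1 (0.9756 to 0.9943), and for Nrg3 they were Gsk3a, Mafa, Msra, Sv2a and Fam171b (0.9917 to 0.9957). Between the members themselves, r was 0.842 for Erbb2 and Erbb3, -0.941 for Nrg3 and Erbb2, and -0.931 for Nrg3 and Erbb3, over the same 6 libraries.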

How the data were processed

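RNA from tissue labelled as sciatic nerve of 3 controls and 3 Dok6 mutants, all of postnatal day 3, was sequenced on an Illumina NovaSeq instrument, with an NEBNext Ultra kit that the methods call directional and the labels do not. The authors deposited counts (whole reads per gene and mouse, not normalized) beside a gene length. The submitters' processing notes name mm10 as the genome build, and the aligner and counter are not given in the sources used here. Columns were matched to samples by genotype and mouse number, and samples were grouped by genotype. The p-values set the difference between genotypes against the variation between mice of a genotype. They treat the mice as independent, which cannot be checked where nothing ties mice to litters.

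The main test was the quasi-likelihood test of edgeR 4.0.16 (R 4.3.3), fitted once to all 6 libraries with glmQLFit and glmQLFTest, with genotype as the only term, after filterByExpr and TMM scaling. Benjamini-Hochberg adjustment ran over all 17099 genes tested. Standard errors were derived from the F statistic. CPM are scaled by TMM. TPM were computed from the counts and the deposited lengths. Ratios per mouse used 2 added counts and were tested by two-sided exact permutation. The precision rests on the counts of each gene and on 3 mice per genotype. The procedures were tested on simulated data. Positions come from GENCODE M21, overlaps between genes from the same annotation, and a BLAST 2.17.0 search for near-identical transcripts (95% identity over 200 bases) found none for the 8 genes.

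All 8 members are named. From each pathway list the called genes with the largest changes are named, at most 4 per list, and from each marker list its defining markers, with other EGF family ligands named above 1 CPM. Likeness was Pearson's r of log2 CPM, 5 genes for each of 4 members. Members and lists were chosen with earlier results of these data known, and they are described by counts and medians without set tests. Nrdc and Drgx, which the lists hold, are not analysed here, and some called genes of the lists are not reported here by name. Alternatives were DESeq2 1.42.0, limma 3.58.1 (voom), scaling by RLE or by upper quartiles, a filter of at least 10 counts in every library, no filter on low counts, fold thresholds, added counts of 0.5 and 5, the mouse number as a block, and leaving out each mouse.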

Additional observations from a re-analysis of the deposited data

How the results depend on the processing

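Over the alternatives with all 6 mice, Erbb3, Erbb2 and Nrg3 kept their direction, with log2 fold changes of 2.99 to 3.31, 1.15 to 1.19 and -0.47 to -0.46. The exceptions in their calls were limma voom, which left 1 member higher (Erbb2, adjusted p 0.0306, while Erbb3 had 0.0524), and the replicate block, which left 0 members lower (Nrg3, adjusted p 0.0658). The block also gave 432 genes higher and 130 lower, and 2 higher and 0 lower in the pathway lists. Samples with the same mouse number did not deviate together (correlations of -0.01, -0.17 and -0.24), so the numbers were not read as pairs. DESeq2 gave 7 pathway genes lower. A log2 fold change above 1 left 0 members lower, and one above 2 left 1 member higher and 0 lower. The causes were not tested.

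With each mouse left out in turn, members called higher ranged from 0 to 3 and lower from 0 to 1, all genes higher from 56 to 1671 and lower from 12 to 1233, and pathway genes higher from 0 to 13 and lower from 0 to 4. The lowest counts came without control mouse 2. Without mutant mouse 2, 549 genes were higher and 174 lower, without mutant mouse 1, 695 and 193, without control mouse 1, 978 and 630, and without control mouse 3, 1006 and 621. Fewer samples enter each such fit. The differences in log2 ratio ranged from 1.25 to 2.44 for Erbb3 to Erbb2, 2.14 to 3.23 for Erbb3 to Nrg1, 0.77 to 1.33 for Erbb2 to Nrg1, and 0.66 to 1.11 for receptors to ligands. The log2 fold change of Nrg4 turned to 0.28 without control mouse 1, with a range of -0.60 to 0.28. Depth limits Nrg4, with 17 to 59 counts per library, and the 3 control values of Erbb3, with 33 to 62.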
